A study of Mus musculus with 8 samples.

Results

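Untreated CD8+ T cells were the starting condition of a study of type I interferon in the response of T cells to antigen, and their arrays are described here for what resting cells transcribed and what they did not. The 2 untreated arrays, out of 8 in the study, were taken by their label as untreated CD8+ cells, which carry the replicate names rep1 and rep2. The cells came from the spleens of mice on the C57BL6 background with the OT-I TCR transgene, and the labels name no other allele and give neither age nor sex nor the promoter of the transgene. They were isolated with a magnetic pan T cell kit, were 90 to 97% pure by flow cytometry for CD8α, B220 and CD11c, and were kept in RPMI medium with fetal calf serum, without interferon beta and without receptor stimulation. The labels do not say whether rep1 and rep2 came from separate mice or whether mice were pooled. The other 6 arrays hold cells given interferon beta, receptor stimulation or both, and are not compared with the untreated cells.

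OT-I cells carry a transgenic T cell receptor (TCR) made of a Vα2 and a Vβ5 chain, specific for SIINFEKL, a fragment of ovalbumin presented by H-2Kb. Before they meet antigen, CD8+ T cells circulate between blood and lymphoid organs, survive on IL7 and on contacts with self class I molecules, and are held out of the cell cycle by a program in which KLF2, FOXO1, TCF7 and the BTG and TOB proteins take part. Contact with antigen turns on immediate early genes, cytokine genes, cytotoxic granule genes and division. Interferon beta acts on the same cells through the receptor chains IFNAR1 and IFNAR2, the kinases JAK1 and TYK2, and a factor that contains STAT2 and IRF9.

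Signal is the background-subtracted brightness of a 60-base Agilent probe, scaled so that the 75th percentile of each array is 1500. The measured set was 19798 genes, each represented by its brightest probe, and the percentile of a gene is its place among them. Pairs of values are scaled signals on the rep1 and the rep2 array. A percentile places a probe's signal, which also depends on the probe's sequence, so it is read as a band and not as an amount of transcript. Total RNA was measured in bulk, so fewer cells of a type and less RNA per cell cannot be told apart.

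Both arrays had 45018 spots, of which 1639 were controls, no spot was saturated, and the 75th percentile before scaling was 1256 and 1216. The slides differed in their floor. The median local background was 25 and 32, the SD of the background-subtracted negative controls was 3.29 and 2.13, and 13449 genes were well above background on the rep1 array against 14987 on the rep2 array. The spike-in RNAs followed their input with a slope of 0.949 and 0.945 on the log scale. Each array lay on its own slide, so the replicate and the slide cannot be told apart.

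For repeated probes well above background on both arrays, the untreated arrays agreed within about the noise of repeated spots. Over 150 such probes, each with at least 5 usable spots per array, the SD of the log2 difference rep2 minus rep1 was 0.0568. The value calculated from the spread of the spots within each array was 0.0522. Dim probes were not part of this comparison. The pair was therefore counted as 1 sample, both values are printed, and no SD or test is given. Over all 19798 genes the SD of the log2 difference was 0.532 and the robust SD was 0.149. Among genes well above background on both arrays they were 0.191 and 0.0822. Of these 13404 genes, 71 (0.53%) differed by 2-fold or more. All 71 lay below percentile 50. Above percentile 75 the farthest gene was 0.557 apart on the log2 scale. Ly6m, a gene of the Ly6 surface protein family, was farthest apart with 31.8 and 360.3, a log2 difference of 3.50. In the other direction Hoxb9, a homeobox gene, had 112 and 21.2, a log2 difference of -2.40. The remaining 18 of the 20 genes farthest apart had signals between 20.1 and 437 on both arrays, all below percentile 50. Among them were Slc7a4, Gpr143, Slc34a2, Alpi, Dscam and Syp.

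**Figure D1:**
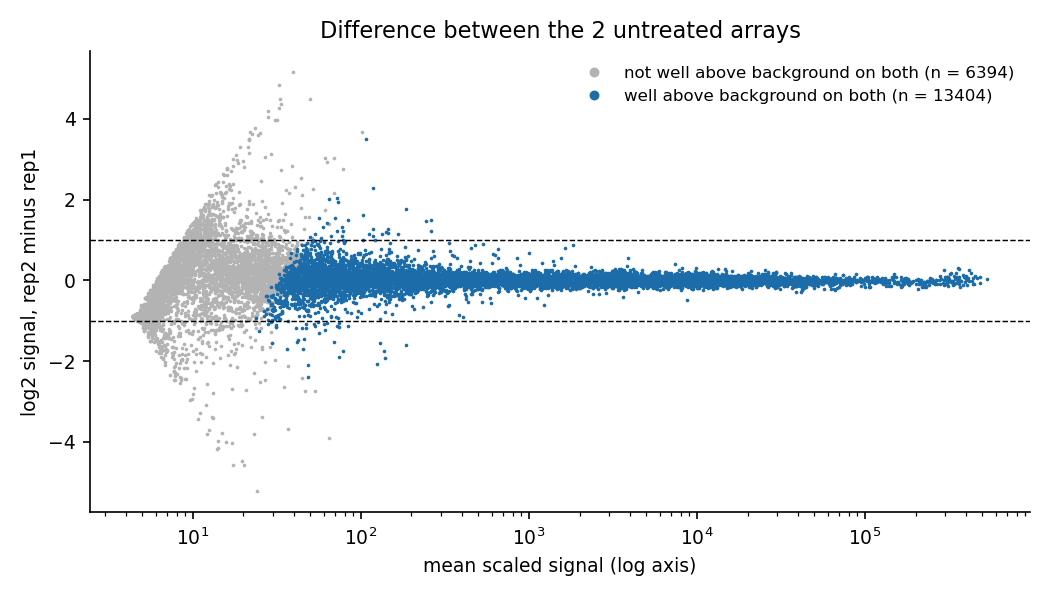
Log2 difference between the rep2 and rep1 arrays of untreated cells (vertical axis) against the mean scaled signal of each of 19798 genes (horizontal log axis). Blue points are the 13404 genes well above background on both arrays, grey points the other 6394, and dashed lines mark 2-fold. The spread narrows with signal, and no gene above percentile 50 lies beyond the dashed lines.

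Of the 19798 genes, 13404 (67.7%) were well above background on both arrays and 4766 (24.1%) on neither. The remaining genes were above background on 1 array, 45 on rep1 alone and 1583 on rep2 alone, the rep2 set at a median percentile of 28.2. Being above background on this array is a mild criterion. Olfactory receptors, the odorant receptors of nasal neurons, gave 902 genes whose transcripts T cells are not known to use, and 227 of these (25.2%) were well above background on both arrays. The rep2 array alone gave 409 (45.3%) and the rep1 array alone 233 (25.8%). A stricter level was therefore also used, the 95th percentile of the olfactory receptor genes on each array, which was 162.8 and 171.9 in scaled signal. It was passed on both arrays by 10663 genes (53.9%) and by 36 olfactory receptor genes (3.99%). This level was chosen after the signals had been seen. The base composition of the probe moved with the call. Probes with 19 to 22 G or C bases were well above background in 50.3% of cases and those with 31 to 34 in 76.7%, and among olfactory receptor probes the shares were 5.18% and 65.6%.

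**Figure D2:**
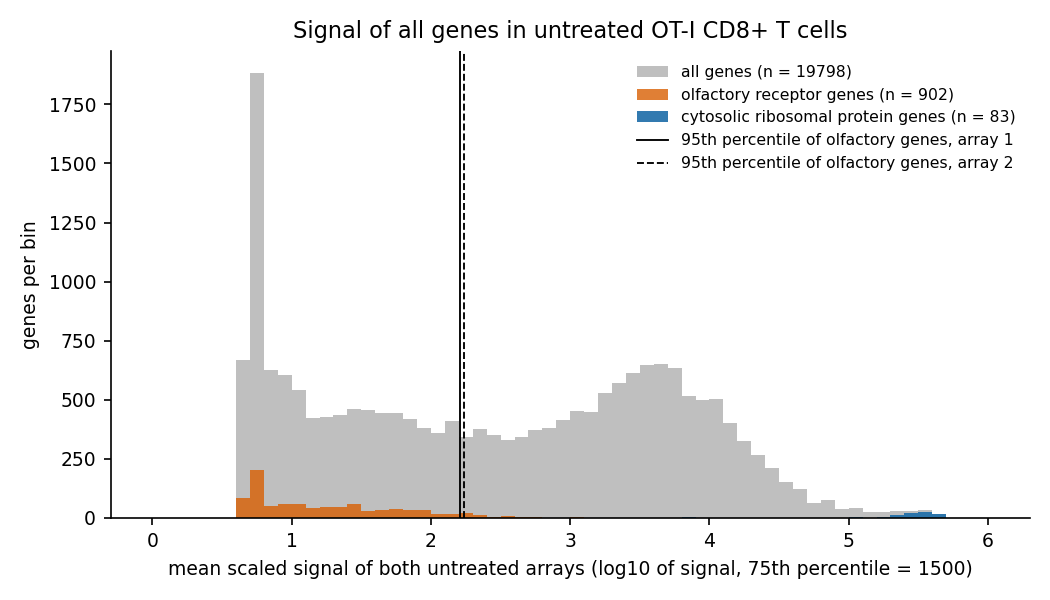
Number of genes per bin (vertical axis) by mean scaled signal of the untreated arrays (log10, horizontal axis), for all 19798 genes in grey, 902 olfactory receptor genes in orange and 83 cytosolic ribosomal protein genes in blue. The vertical lines are the 95th percentile of the olfactory receptor genes on each array, 162.8 and 171.9. All genes form a low and a high mode, the olfactory receptor genes lie almost all left of the lines, and the ribosomal protein genes sit at the bright end.

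The T cell receptor itself was read by a set of probes that name its gene segments. They include the Vα group carried by the OT-I transgene and segments that the transgene does not use. The table of segments was drawn up after the values had been seen. The probes below are given because they span bright and dim signals. Their coordinates are those of build mm9, the letters are the deposited probe sequences 5′ to 3′, and capitals in the receptor probes mark codons for tyrosine, then phenylalanine or leucine, then cysteine, the stretch that lies near the end of V segments. It occurs in the first Trav14-2 probe and in the TRBV14 and TRBV5 probes.
Cd8a (chr6:71323885-71323944, +): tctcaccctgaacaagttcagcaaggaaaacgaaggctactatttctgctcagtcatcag
TRBC1 (chr6:41488219-41488278, +): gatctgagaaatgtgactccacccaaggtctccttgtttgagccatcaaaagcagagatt
TRAC (chr14:54841802-54842701, +, a span longer than the probe): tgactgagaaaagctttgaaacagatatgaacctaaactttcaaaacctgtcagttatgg
Trav14-2 probe 1 (chr14:53990185-53990244, +): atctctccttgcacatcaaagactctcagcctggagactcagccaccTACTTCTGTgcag
Trav14-2 probe 2 (chr14:54260713-54260772, +): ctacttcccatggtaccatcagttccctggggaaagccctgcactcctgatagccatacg
TRBV14 (chr6:41085544-41085603, +): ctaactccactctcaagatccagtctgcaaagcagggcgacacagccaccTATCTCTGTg
TRBV19 (chr6:41128898-41128957, +): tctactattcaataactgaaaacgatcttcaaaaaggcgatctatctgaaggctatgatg
TRBV5 (chr6:41012732-41012791, +): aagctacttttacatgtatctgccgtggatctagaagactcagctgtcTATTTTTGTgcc
TRDC (chr14:54762764-54763464, +, a span longer than the probe): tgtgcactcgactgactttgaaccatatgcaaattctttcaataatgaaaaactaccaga

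Vα2 is encoded by the Trav14 group, and the probes named Trav14-2 had 93516 and 94196 for probe 1 and 60215 and 58128 for probe 2. Members of that group are near identical in mice, so the probes do not say which copy was transcribed. The beta chain constant segments were among the brightest probes of the array. The first TRBC1 probe had 385041 and 465511, and the TRBC2 probe had 328192 and 309599. The alpha chain constant segment TRAC, which follows every Vα, had 74206 and 74069. Several other V segments were near background. TRBV19 had 62.0 and 65.8, TRBV14 had 62.6 and 37.7, the TRBV5 probe shown had 21.0 and 31.1, TRBV26 had 6.84 and 3.53, and Trav17 had 7.23 and 4.07. TRBV5 in this nomenclature is not the Vβ5 of OT-I, which the nomenclature calls Trbv12, and no probe carried that name, so the beta V segment of the transgene was not read. A probe named Trav14n-3, of the Trav14 group, had 30.8 and 34.3. Some segments outside the transgenic receptor also stood above the olfactory level. TRDC, the constant segment of the delta chain, had 13191 and 13785. Its V segment TRDV2-1 had 4822 and 4651, and Trav16d-dv11, a V segment usable by alpha and delta chains, had 613 and 659. A partial alpha chain mRNA had 1096 and 1117, and a predicted transcript like an alpha V region had 610.2 and 634. The TRDC gene lies within the alpha locus, and the probes do not tell a delta chain message from a longer alpha locus transcript. Gamma chain probes were mixed. The brightest gamma chain probe had 1760 and 1812, a probe of the gamma constant region had 1130 and 1133, and Trgv2, a gamma chain segment, had 8.74 and 6.12.

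**Figure D3:**
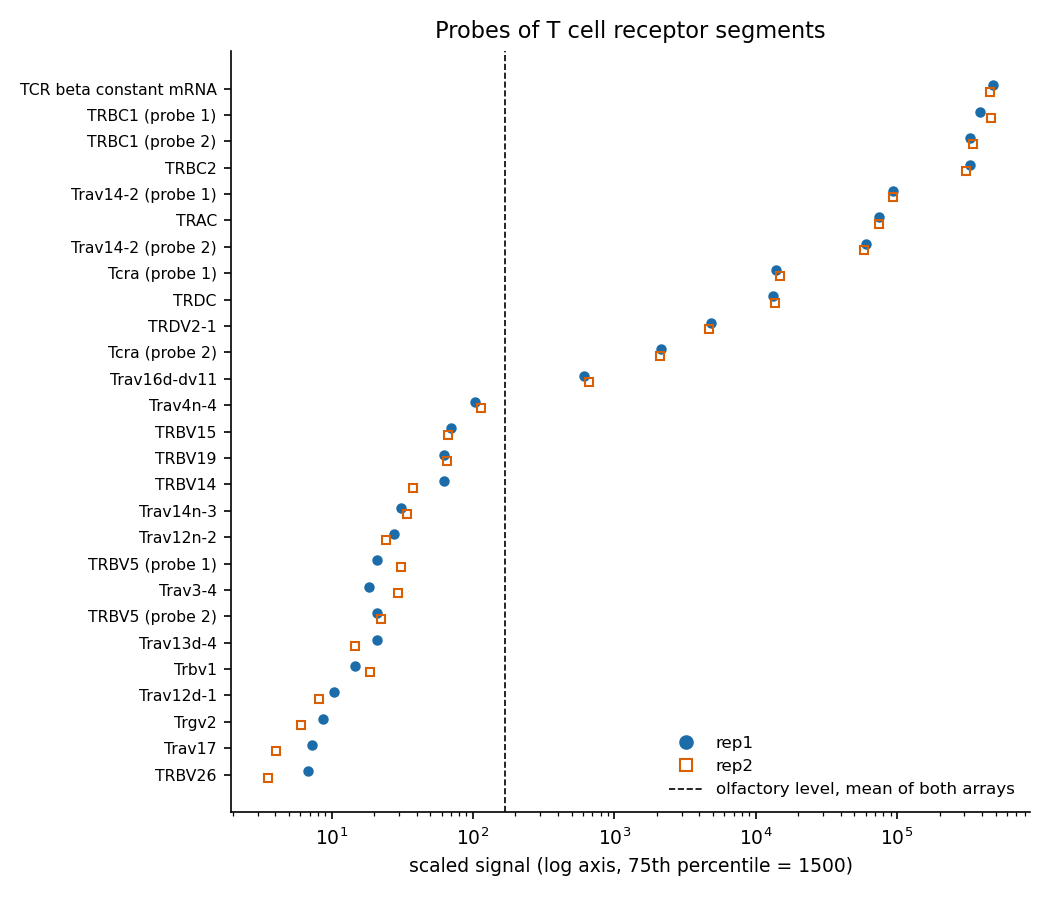
Scaled signal on the rep1 array (filled circles) and the rep2 array (open squares) for probes of T cell receptor segments in untreated cells, on a log axis. The dashed line is the mean olfactory level of both arrays. The beta and alpha constant segments and the Trav14-2 probes lie far to the right, and the other plotted V segments apart from Trav16d-dv11 and TRDV2-1 lie left of the line.

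Untreated cells had the full surface kit of a CD8+ T cell. All 21 genes of the receptor complex, coreceptors and T cell surface were above the olfactory level, with a median percentile of 96.7 against 50 for all genes, and 19 of them lay above percentile 75. Cd8b1, the coreceptor beta chain, had 212962 and 212841. Cd8a, the alpha chain used for the purity check, had 30226 and 30523 with its brightest probe, and its other probes ranged down to 9301 and 9030 for the one printed above. Cd3d, a signalling subunit of the receptor, had 140186 and 147964. Ptprc, the phosphatase CD45 of all white blood cells, had 98796 and 99359.9, and the T cell surface marker Thy1 had 83795 and 84046. The zeta chain Cd247 had 27498 and 27909. Cd3e, another receptor subunit, had 2832 and 2908 and sat at percentile 71.9, the lower end of the list, beside the adhesion receptor Cd226 with 2864 and 2867. The members differed by at most 0.279 in log2 between the arrays, the farthest being the inhibitory surface receptor Cd5 with 42682 and 35184. All 8 defining markers chosen for the label (Cd8a, Cd8b1, Cd3e, Cd3d, Cd3g, Cd247, Lck and Thy1) were above the olfactory level.

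The kinases and adaptors that carry the receptor signal were in place. All 40 genes of proximal receptor signalling were well above background, 39 were above the olfactory level, and the median percentile was 85.3. Lck, the kinase that phosphorylates the receptor chains, had 60626 and 59741. The adaptor Fyb had 57185 and 57520.2, and Txk, a Tec family kinase, had 48411 and 50059. The calcium-dependent factor Nfatc2 was the one member below the olfactory level, with 105 and 81.7. The brakes on this pathway were present at the same time. All 33 measured negative regulators were well above background, with a median percentile of 76.8. Dgka, the diacylglycerol kinase that limits Ras signalling in resting T cells, had 99848 and 100965. Ptpn22, a phosphatase that acts on Lck, had 80759.8 and 78310.2. The MAP kinase phosphatase Dusp2 had 50025 and 49161 and the phosphatase Ptpn2 had 23011 and 22467. Rnf128 and Spry1 were the members below the olfactory level, with 114 and 119 for the ubiquitin ligase Rnf128 and 155 and 142 for the signalling inhibitor Spry1.

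Transcription factors of the naive state were among the bright probes. Of 29 such factors, all were well above background and 27 were above the olfactory level, with a median percentile of 90.3. Ets1, a factor needed for T cell survival, had 100684 and 106144. Klf2, which controls the genes of recirculation, had 99517 and 104960. The chromatin organiser Satb1 had 101191 and 95469.7, and Tcf7, a factor of naive and memory T cells, had 89139.5 and 87446. These 4 lay at or above percentile 98.9. Lef1, the close relative of Tcf7, had 10573 and 9786, with 1 of its 2 probes well above background on both arrays. Foxo1, which drives Il7r and Klf2, had 21164 and 22256. Bach2, a repressor of effector genes, had 5525 and 5862. Low members were Elf4 with 126 and 120.1 and Foxo3 with 95.2 and 98.4, both below the olfactory level.

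Quiescence genes formed one of the brightest groups. All 31 were well above background, 30 were above the olfactory level, and 25 lay above percentile 75. Btg1, an antiproliferative gene that promotes mRNA turnover in resting T cells, had 171032 and 177704, and its relative Btg2 had 39088 and 34457. Fam107b had 65218 and 66439.6, the ubiquitin ligase Peli1 had 61223 and 63180.4, and Slfn2, whose loss breaks T cell quiescence in mice, had 54761 and 53847. Pik3ip1, an inhibitor of PI3 kinase, had 33977 and 33685. Txnip, which restrains glucose uptake, had 41508 and 43175. The cell cycle inhibitor Cdkn1b had 26598 and 25309, and the antiproliferative gene Tob1 had 5375 and 5385. This list and the naive factors share Klf2, Foxo1 and Foxo3. The GIMAP GTPases, which support lymphocyte survival, were likewise bright, with all 7 above the olfactory level at a median percentile of 93.5. Gimap6 had 93632 and 95205 and Gimap7 had 3576 and 3423.

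Genes of homing, egress and integrins ran from bright to background. Of 40 genes of homing, egress and integrins, 33 were well above background and 27 above the olfactory level (82.5% and 67.5%, against 67.7% and 53.9% of all genes), with a median percentile of 67.6. S1pr1, the receptor that lets T cells leave lymphoid organs, had 52252 and 51359. The chemokine receptor Ccr7, used to enter lymph nodes, had 49212 and 47644. Selplg, the selectin ligand PSGL-1, had 42295 and 42079. Cxcr3, a receptor for interferon-induced chemokines, had 3666 and 3581. The receptors and integrins not well above background on both arrays were Itgb5, Itga1, Ccr8, Itga5, Ccr10, Itga2 and S1pr5, between percentile 14.8 for S1pr5 and 29.9 for Itgb5. S1pr5, the egress receptor of NK and effector cells, had 10.1 and 5.22, and Itga2 had 12.5 and 6.93.

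Cytokine receptors also spread widely. Of 41, 38 were well above background and 35 above the olfactory level (92.7% and 85.4%, against 67.7% and 53.9% of all genes). The median percentile was 66.2. Ifngr1, the ligand-binding chain of the interferon gamma receptor, had 149592 and 148030. Il7r, the receptor of the survival cytokine IL7, had 103560 and 105553 with its brightest probe. Its other probes ranged down to 1080 and 1067. Il4ra had 34741 and 33117 and the shared gamma chain Il2rg had 33823 and 29047. Il2rb, the beta chain shared by the IL2 and IL15 receptors, had 20451 and 21437. The high-affinity IL2 receptor chain Il2ra, which activation induces, had 179 and 178 at percentile 46.3, just above the olfactory level. Tgfbr3, Il9r and Lepr were not well above background on both arrays, with 22.9 and 24.1, 8.47 and 12.8 and 7.15 and 4.33.

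All 26 genes of the type I interferon receptor and JAK-STAT pathway were above the olfactory level, with a median percentile of 89.4. Ifnar1 had 11885 and 12525 and Ifnar2 had 3693 and 3528, so both receptor chains were measured. Jak1 had 115989 and 120461, at percentile 99.2, and its partner kinase Tyk2 had 2201 and 2352. Among the factors that carry the signal to the nucleus, Irf9 had 9266 and 9593 and Stat2 had 1012 and 1051. Irf1, Stat5b and Stat4 were bright as well, with 39619 and 39002 for Irf1, 32622 and 31961 for Stat5b and 29765 and 28978 for Stat4. The inhibitors Socs1 and Socs3 had 5018 and 5008 and 11588 and 11462 as pairs of values. Interferon genes themselves were low. Of 11 type I interferon genes 7 were well above background but 2 were above the olfactory level, Ifna9 and Ifna13, and Ifnb1 had 8.97 and 3.98.

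Interferon-stimulated genes had a measurable level without added interferon. Of 53 antiviral genes, 50 (94.3%) were well above background and 48 (90.6%) above the olfactory level. The shares of all genes were 67.7% and 53.9%, and the median percentile of the list was 63.9. The bright end was Ifi27l2a, a mitochondrial interferon-induced gene, with 58714 and 57277, the nuclear body gene Sp110 with 27890.1 and 28716, and the surface proteins Ly6c2 with 28000.1 and 26506 and Ly6e with 25983 and 26177. The classical induced genes sat near the middle of all genes. Isg15, the ubiquitin-like modifier, had 1959 and 1733, and Irf7, the amplifier of interferon production, had 1867 and 1839.6. Ifit1, which binds foreign RNA, had 561 and 565, and its relative Ifit3 had 1279.7 and 1193. Usp18, which ends the interferon signal, had 315 and 299.7. Mx1, an antiviral GTPase, had 94.9 and 92.4, below the olfactory level. Ifi44, Oas1g and Ifi44l were not above background on either array, with 14.1 and 13.4, 6.99 and 4.15 and 7.12 and 4.04. Mx1 is disrupted in most laboratory strains, including C57BL/6, and its probe reads RNA and not function.

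The interferon-inducible GTPases and the class I pathway stood higher. All 15 GTPases were above the olfactory level with a median percentile of 81.5. Tgtp1 had 30215 and 27916, Igtp had 24443 and 22919, and Ifi47 had 15312 and 14915. Gbp2 had 7854 and 7692. Iigp1 was the lowest, with 255 and 246. All 20 genes of class I presentation were above the olfactory level, with a median percentile of 95.3, and 19 lay above percentile 75. B2m, the light chain of class I, had 320118 and 298581, and H2-K1, the heavy chain that presents SIINFEKL, had 226745 and 220974. H2-D1 had 211119 and 210424 and the nonclassical gene H2-T23 had 145185 and 154297. Class I heavy chain genes are near copies of each other, so signals of H2-K1, H2-D1 and the Q region genes may be shared between them. The immunoproteasome subunit Psmb8 had 32478 and 31557. Nlrc5, the activator of class I transcription, was lowest with 811 and 817. Sensors of foreign nucleic acid were mixed. Of 23 sensors and adaptors 18 (78.3%) were well above background and 16 (69.6%) above the olfactory level. The shares of all genes were 67.7% and 53.9%. Irf3 had 20343 and 19936 and Sting1 had 9918 and 9621, while Aim2, Tlr3, Tlr4 and Tlr8 were above background on neither array.

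Immediate early genes, the first to respond to receptor contact, were not silent. Of 35, 32 were well above background and 30 above the olfactory level (91.4% and 85.7%, against 67.7% and 53.9% of all genes). The median percentile was 68.7. Nfkbia, the inhibitor of NF-κB, had 58964 and 59064, and Dusp2 had the value given above. Ier5 had 35327 and 35905 and the AP-1 subunit Junb had 31672 and 33167. Nr4a1, a nuclear receptor that reports receptor signals, had 19852 and 20065. Egr1, a zinc finger factor, had 4005 and 4017. Fos, another AP-1 subunit, had 544 and 559, Jun had 368 and 363, and Myc, the growth regulator, had 2201 and 2328. Fosl1, Nr4a3 and Egr4 were not well above background on both arrays, with 26.9 and 14.5, 18.6 and 20 and 16 and 11. Isolation and culture are steps that all the cells went through, and their part in these levels was not tested.

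Receptors that mark activation were spread over the whole range. Of 27, 23 were well above background and 20 above the olfactory level (85.2% and 74.1%, against 67.7% and 53.9% of all genes). The median percentile was 60.6. Tnfrsf18, the costimulatory receptor GITR, had 22946 and 24157. Icos had 17299 and 16944, the early activation marker Cd69 had 12907 and 13088, and the receptor Slamf6 had 11675 and 10937. Cd44, the adhesion receptor that rises on antigen-experienced cells, had 2415 and 2415. Cd70, Lag3, Havcr2 and Cd40lg were not well above background on both arrays. Lag3, an inhibitory receptor induced by activation, had 21.1 and 29.3, and Havcr2, the inhibitory receptor TIM-3, had 14.1 and 5.89. Cd40lg, the ligand that T helper cells use, had 9.24 and 8.95, and Cd70 had 23 and 28.6.

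Cytokine genes were the lowest of the T cell lists. Of 36, 26 were well above background, a share of 72.2% that is near the 67.7% of all genes. Above the olfactory level were 17 (47.2%, against 53.9% of all genes). The median percentile was 44.3. Il2, the growth factor that activated T cells make, had 45.4 and 49.6. Ifng had 284 and 272 and Tnf had 174 and 179, both not far above the olfactory level. Csf2, Il21 and Il3 were above background on neither array, with 7.69 and 9.51, 8.76 and 4.07 and 6.5 and 3.32. The exceptions were few. Ltb, the lymphotoxin subunit of resting lymphocytes, had 159932 and 151490, and the chemokine Ccl5 had 36455 and 35481. Il16 had 12862 and 12326, and the chemokine Ccl4 had 10426 and 7387.

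Cytotoxic genes spread over the whole range. Of 25, 20 were well above background and 18 above the olfactory level, against 67.7% and 53.9% of all genes. The median percentile was 57.2. At percentile 90 or more lay 5 of them, and 5 lay below percentile 25. Srgn, the proteoglycan core of secretory granules, had 232675 and 222424, and Klrd1, the CD94 lectin receptor chain, had 113839 and 116881. The cathepsin Ctsw had 32877 and 34173, and Nkg7, a granule membrane protein, had 17626 and 17188. Prf1, the pore former perforin, had 3187 and 4688, which was 0.557 apart in log2 between the arrays. Gzmb, the main granzyme of killer cells, had 1789 and 1766, Gzmm had 592 and 551, Gzma had 531 and 513 and Gzmk had 99.9 and 103. The granzymes Gzmd, Gzme, Gzmf, Gzmg and Gzmn were above background on neither array, all at or below percentile 9.8.

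Effector and memory transcription factors were detected at mostly middling signals. All 23 were well above background and 19 were above the olfactory level, with a median percentile of 56.7. Id2 had 11815 and 10029, Hif1a had 9447 and 8977, Ikzf2 had 6478 and 6279 and Batf had 5759 and 5946. Eomes and Tbx21, the T-box factors of effector and memory CD8+ cells, had 365 and 363 and 269 and 273 as pairs. Genes of the memory phenotype, which part of the CD8+ cells of unimmunised mice show, were present in 34 of 35 cases above the olfactory level, with a median percentile of 74.0. Klrd1, Ccl5, Ctsw and Nkg7 belong to this list too. S100a10 had 95835 and 96979 and Plac8 had 41356 and 38286. Samd3 was the member not above background, with 8.12 and 4.22. A bulk array does not say whether these transcripts came from a few cells or from all.

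**Figure D4:**
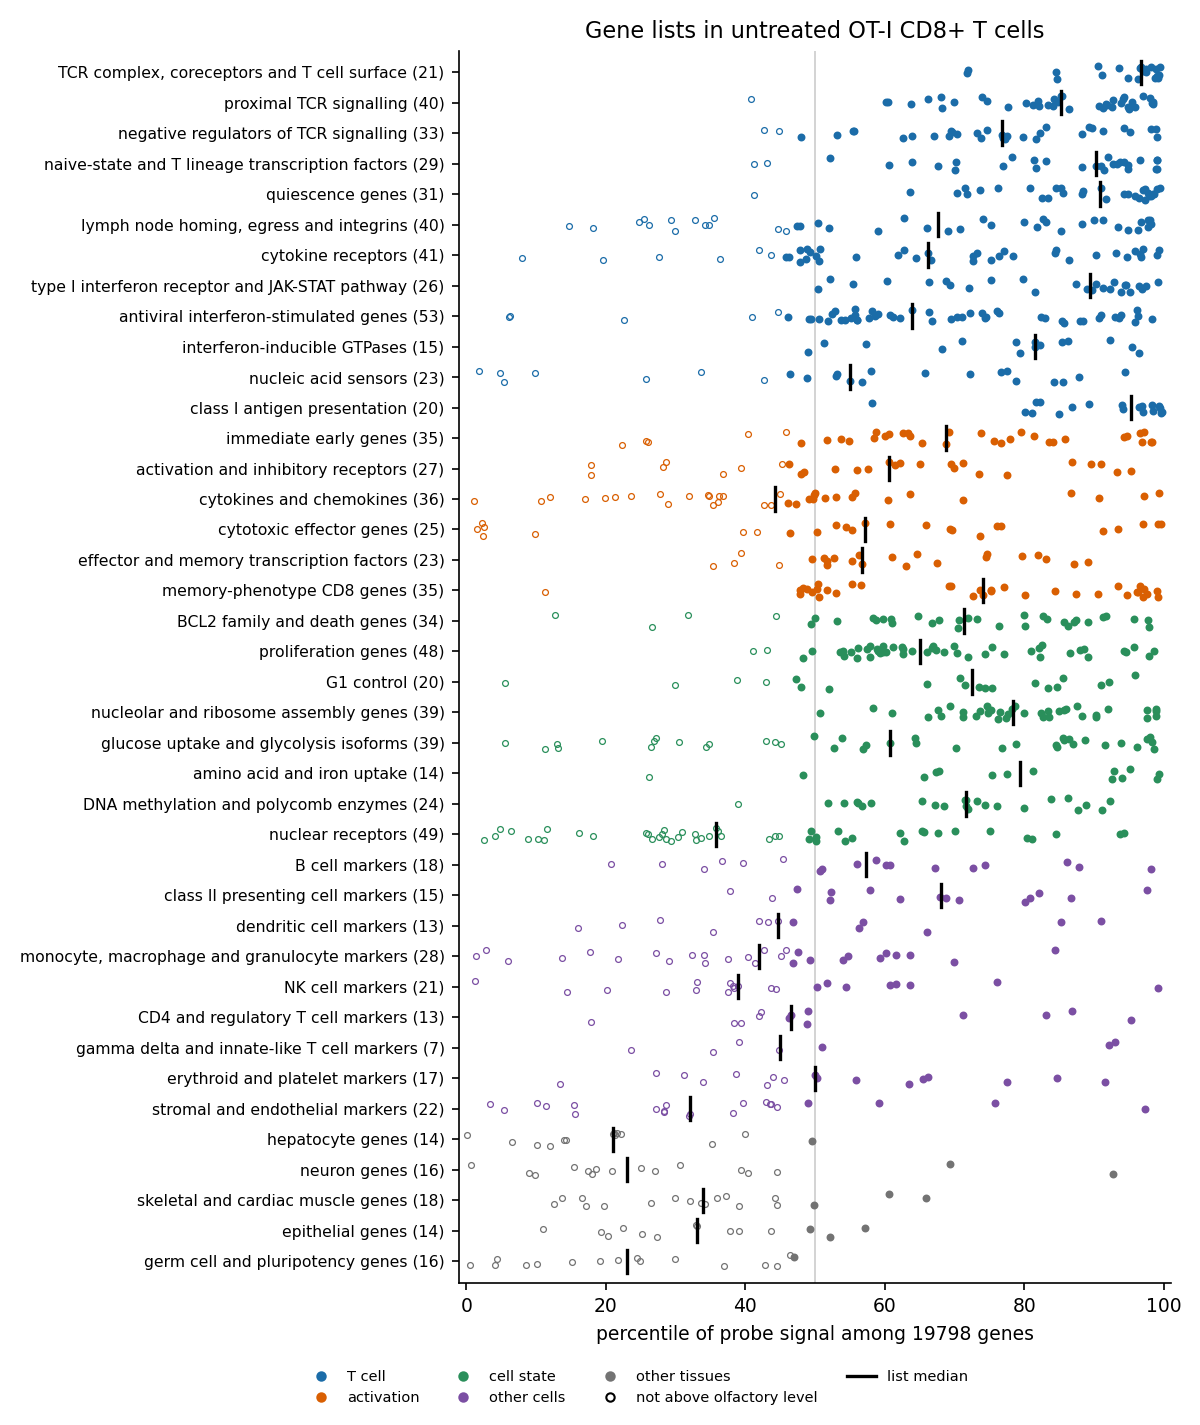
Percentile of probe signal (horizontal axis) of each measured member of 40 gene lists in untreated cells, with the number of measured genes in parentheses. Filled points are above the olfactory level on both arrays, open points are not, black bars are list medians and the vertical line is percentile 50. The receptor complex, class I and quiescence lists crowd the right edge, cytokines spread over the full range, and the lists of other tissues lie mostly left of percentile 50 as open points.

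Machinery for growth and division was transcribed in these cells, although the label calls them untreated and the naive program was bright. All 48 proliferation genes were well above background and 46 were above the olfactory level, against 67.7% and 53.9% of all genes. Their median percentile was 65.0. At percentile 50 or more lay 44 of them, but only 5 lay at percentile 90 or more. Pcna, the replication clamp, had 71494 and 69884, and the helicase subunits Mcm6 and Mcm7 had 45794 and 43813 and 24047 and 26933. Cdt1, the licensing factor, had 21259 and 20353. Mki67, the marker of cycling cells, had 8872 and 8425, and Top2a, the topoisomerase of dividing cells, had 2008 and 1843. Only 1 of the 3 Top2a probes was well above background on both arrays. Ttk and Cdc25c, needed in mitosis, were lowest with 128 and 119 and 93 and 100.2. No dividing or arrested sample is set beside these cells, so these levels do not say what share of them was in cycle. In G1 control, 18 of 20 genes were well above background (90.0%, against 67.7% of all genes). Ccnd2, the D cyclin of lymphocytes, had 14914 and 14888 and Ccnd3 had 7305 and 7279. Ccnd1, the D cyclin of most other tissues, had 29.8 and 28.5, and the inhibitor Cdkn2a had 7.23 and 3.84.

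Survival genes of resting T cells were bright. Of 34 genes of the BCL2 family and cell death, 31 (91.2%) were well above background and 30 (88.2%) above the olfactory level. The shares of all genes were 67.7% and 53.9%, and the median percentile of the list was 71.3. Mcl1, a survival factor, had 46566 and 46352, and Bcl2, which IL7 maintains, had 9176 and 9141. Bcl2l11, the death factor BIM that opposes both, had 44909 and 43072. Casp2 had 25119 and 25180.3 and Birc3 had 14180 and 13907. Casp12, Bok and Hrk were not well above background on both arrays, with 40 and 31.5, 17.2 and 25.9 and 6.14 and 6.37.

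Protein synthesis gave the brightest signals of all. Among the 30 brightest genes 27 encoded cytosolic ribosomal proteins, and among the 100 brightest 72 did. Fau, which encodes a ubiquitin-like protein fused to a ribosomal protein, was one of them with 490248 and 472427. The 3 others among the 30 were COX2, the mitochondrial gene of cytochrome oxidase, with 373262 and 367959, the ribosome-bound scaffold Rack1 with 357702 and 362956, and the actin-binding peptide gene Tmsb4x with 354105 and 360181. Other bright genes outside the ribosomal family were the elongation factor Eef1a1 with 328580 and 321688, the ubiquitin gene Ubb with 304407 and 337039, the class I light chain B2m given above and Shisa5, an interferon- and p53-responsive gene of the endoplasmic reticulum, with 296882 and 298050. Ribosomal protein genes have many processed copies, which these probes may also read. Of 83 ribosomal protein genes 82 were well above background, and the one that was not, Rpl3l, is a muscle paralogue and had 18.2 and 8.71. All 39 nucleolar and ribosome assembly genes were above the olfactory level at a median percentile of 78.3. Npm1 had 91544 and 90647, Odc1 had 85641 and 85658, Ncl had 79049 and 81464 and Fbl had 45484 and 38759. The 53 translation initiation factors had a median percentile of 92.3 and the 78 mitochondrial ribosomal proteins one of 86.9, all well above background.

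Families of oxidative metabolism had high median percentiles, and glycolysis genes were split by isoform. All 37 complex I subunits and all 17 ATP synthase subunits were above the olfactory level, with median percentiles of 95.2 and 98.2. The cytochrome c oxidase genes were not uniform. Of 27, 23 (85.2%) were well above background and 22 (81.5%) above the olfactory level. Their median percentile was 91.5, and single genes ranged between percentiles 2.3 and 99.2. Of 39 genes of glucose uptake and glycolysis, 31 (79.5%) were well above background and 25 (64.1%) above the olfactory level. The shares of all genes were 67.7% and 53.9%, and the median percentile of the list was 60.8. Gpi1 had 67529.6 and 67847, Ldha had 56674 and 59746, Gapdh had 48301 and 45086 and Aldoa had 40239.9 and 41721. Hk1, the hexokinase of most tissues, had 7692 and 8073, whereas Hk2, which growth signals induce, had 688 and 694. The glucose transporter Slc2a1 had 14141 and 13865 and Slc2a3 had 4065 and 4019.9. The testis and gut isoforms Ldhc, Pgk2 and Slc2a5 were above background on neither array, none above percentile 13.2. The muscle and fat transporter Slc2a4 had 20.5 and 22.6. Iron and amino acid uptake genes were above the olfactory level in 13 of 14 cases, the exception being the cystine transporter Slc7a11 with 17.4 and 23.6. The ferritin chains Fth1 and Ftl1 led with 158859 and 169220 for Fth1 and 109090 and 101789 for Ftl1.

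Chromatin enzymes of DNA methylation and polycomb repression were all above background, 24 of 24, with a median percentile of 71.6. Mbd2 had 14919.8 and 15312, Rnf2 had 13022 and 13321, Jarid2 had 10604 and 10513 and Suz12 had 9677 and 9724. Nuclear receptors were selective. Of 49, 28 (57.1%) were well above background and 19 above the olfactory level, below the 53.9% of all genes, with a median percentile of 35.8. Nr4a1 was the brightest, followed by the glucocorticoid receptor Nr3c1 with 18187 and 17872, the retinoid partner Rxrb with 7311 and 7109 and the thyroid hormone receptor Thra with 5131 and 5847. Nr2e1, Nr2f1, Pgr and Esr2 were at the floor, none above percentile 6.3.

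Markers of other blood cells were measured because the purity of 90 to 97% leaves room for them, and their part in the levels above was not tested. Their counts stand against 67.7% of all genes well above background on both arrays and 53.9% above the olfactory level. B cell markers were well above background in 16 of 18 cases and above the olfactory level in 12, with a summed signal of 84292 and 79144. Most of that sum was Ighm, the IgM heavy chain, with 52720.4 and 48533. Among the defining markers Cd79b had 8467 and 8050.1, Ms4a1 had 3024.6 and 3056.3 and Cd79a had 323 and 309, while Pax5, the master factor of B cells, had 8.86 and 14.7 and was not above background. Class II presenting cell markers were above background in 15 of 15 cases and above the olfactory level in 13, with a summed signal of 75153 and 76583. H2-Ab1 had 8842 and 8831, H2-Aa had 5846 and 5985, and Cd74, the invariant chain, had 5664 and 5142. Ctss, an antigen-processing protease, gave the largest value of that list with 39627 and 41062.

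Dendritic cell markers were well above background in 10 of 13 cases (76.9%) and above the olfactory level in 6 (46.2%). The latter share was below the 53.9% of all genes. Their summed signal was 24446 and 24681, and 6 of the 13 also belong to the T cell lists. Bst2 had 13077 and 13013, Ccr9 had 7642 and 7785 and Xcr1 had 1733 and 1859. Itgax, which encodes the CD11c used in the purity check, had 138 and 155, and Siglech, a plasmacytoid marker, had 6.07 and 10.4. Monocyte, macrophage and granulocyte markers were above background in 18 of 28 cases (64.3%) and above the olfactory level in 11 (39.3%), both shares below those of all genes, with a summed signal of 16674 and 16994. Lyz2, the macrophage lysozyme, had 2442 and 2515, Csf1r had 260.2 and 259.6 and Itgam had 45.4 and 45.4. Mpo, the peroxidase of granulocyte precursors, had the largest value of that list, 7084 and 7182. NK cell markers were above the olfactory level in 8 of 21 cases, with a summed signal of 122683 and 127176 that was mostly Klrd1, which memory-phenotype CD8+ cells also carry. Ncr1, the receptor NKp46 that defines NK cells, had 9.27 and 12.8 and was not above background on both arrays, and Klrb1c, the NK1.1 antigen, had 129.8 and 134.

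The list of CD4 and regulatory T cell markers held low and high members. Cd4 had 109 and 114, Foxp3, the factor of regulatory T cells, had 82.8 and 72.6, and Zbtb7b, the factor of the CD4 lineage, had 71.6 and 67.5, all below the olfactory level. The list was above background in 12 of 13 cases (92.3%, against 67.7% of all genes). Above the olfactory level were 8 of 13 (61.5%, against 53.9% of all genes), and the summed signal was 42787 and 42834. Of its measured members 8 are also activation or T cell genes, among them Tnfrsf18 and Tnfrsf4. Markers of gamma delta and innate-like T cells were mixed. Of 7 measured, 3 were above the olfactory level and 2 of these lay at percentile 90 or more, with a summed signal of 31244 and 32637. Cd163l1, a scavenger receptor of gamma delta T cells, had 14514 and 15036, while Sox13 had 46.5 and 55.9, Il23r had 79.1 and 72.1 and Il17a had 13.8 and 16.9. Erythroid and platelet markers were above the olfactory level in 9 of 17 cases (52.9%, near the 53.9% of all genes), with a summed signal of 32535 and 31883. Hba-a1, a haemoglobin alpha gene, had 1728 and 1687, Alas2, the haem enzyme of red cell precursors, had 20.1 and 25, Pf4 of platelets had 1423 and 1439.9 and Ppbp had 8.8 and 4.88. Stromal and endothelial markers were above the olfactory level in 4 of 22 cases. Col1a1 had 36.3 and 35.2 and Cdh5 had 8.56 and 4.02.

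Sex-linked genes were read in both arrays. Xist, the RNA of the inactive X chromosome, had 1017 and 1084 on the brightest of its 4 probes. Its other probes ranged down to 24.4 and 33.1, which was not well above background on rep1. The Y-linked genes Ddx3y and Eif2s3y had 10998 and 9583 for Ddx3y and 8911 and 8506 for Eif2s3y. Kdm5d had 2508 and 2971 and Uty had 136 and 150.3. The labels give no sex, and the values do not say whether mice of both sexes contributed.

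Genes of unrelated tissues were mostly below the olfactory level. Well above background on both arrays were 3 of 14 hepatocyte genes, 5 of 16 neuron genes, 10 of 18 muscle genes, 7 of 14 epithelial genes and 6 of 16 germ cell and pluripotency genes, against 67.7% of all genes. Above the olfactory level were 1 of 14 hepatocyte genes, 2 of 16 neuron genes, 3 of 18 muscle genes, 3 of 14 epithelial genes and 1 of 16 germ cell and pluripotency genes, set against 53.9% of all genes. The liver gene Alb had 7.04 and 4.18, and the hepatocyte exception was Tat with 239 and 304. In the neuron list Syn1 and Tubb3 passed, with 16888 and 15334 for Syn1 and 2341 and 2421 for Tubb3. Ryr1, Actc1 and Tnnt3 passed in the muscle list, Krt14, Epcam and Krt18 in the epithelial list, and Prm1 in the germ cell list. Ryr1, a calcium channel of muscle, had 1792 and 1772.

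Large developmental and sensory families were also mostly below the olfactory level. Well above background on both arrays were 21 of 129 vomeronasal receptors, 4 of 16 taste receptors, 5 of 28 beta defensins, 11 of 39 Hox genes, 10 of 43 protocadherins, 7 of 18 Wnt ligands and 17 of 42 keratins. Above the olfactory level were 6 of 129 vomeronasal receptors, 0 of 16 taste receptors, 0 of 28 beta defensins, 4 of 39 Hox genes, 2 of 43 protocadherins, 2 of 18 Wnt ligands and 6 of 42 keratins. Their median percentiles ran between 12.7 for taste receptors and 25 for keratins. Hoxc4, a Hox gene of lymphoid cells, was the brightest of its family with 846 and 837. Of 33 interleukin genes 5 were above the olfactory level, namely Il16, Il27, Il10, Il15 and Il11. By contrast 266 of 356 genes named Zfp, which encode zinc finger proteins, were above it, with a median percentile of 58.8. Among 17 Krüppel-like factors 12 were above it, led by Klf2, Klf6 with 49905 and 52887, Klf3 with 19487 and 20063 and Klf13 with 18261 and 17722.

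Gene class and position were also related to the call. Protein-coding genes were above the olfactory level in 55.7% of 18589 cases, and long noncoding RNA genes in 18.5% of 882. By chromosome the share well above background ran between 59.5% for X (754 genes) and 74.5% for chromosome 11 (1527 genes), apart from the 16 genes of Y with 31.2% and the 4 mitochondrial genes, which were all above background. Mean probe base composition differed between chromosomes as well, with 24.5 G or C bases for X and 26.6 for chromosome 11.

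The promoters of bright and dim genes differed in base content. Windows of RefSeq promoters in assembly GRCm38.p6, each from 250 bases before to 50 bases after the start of the gene, matched 14866 of 18142 protein-coding genes on the chromosomes covered (81.9%). The dinucleotide CG, counted on one strand because it reads the same on both, occurred 15 or more times in 53.7% of them and in 35.2% of all 27025 windows of the table. The share was 19.8% in the lowest 10 percentiles of signal, 44.5% between percentiles 40 and 50, 60.6% between 50 and 60, and 76.6% in the highest 10. The median number of CG was 4 in the lowest and 22 in the highest 10 percentiles. Within probes of 19 to 22 G or C bases the share was 23.9% below percentile 25 and 80.6% above percentile 75, so the relation was also seen at like probe composition. The motif TATAAA was searched on the given strand of each window only. It was found in 15.7% of windows in the lowest and 6.05% in the highest 10 percentiles, against 7.87% of all 14866. These are descriptions across genes, which share arrays and chromosomal regions, and carry no test.

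**Figure D5:**
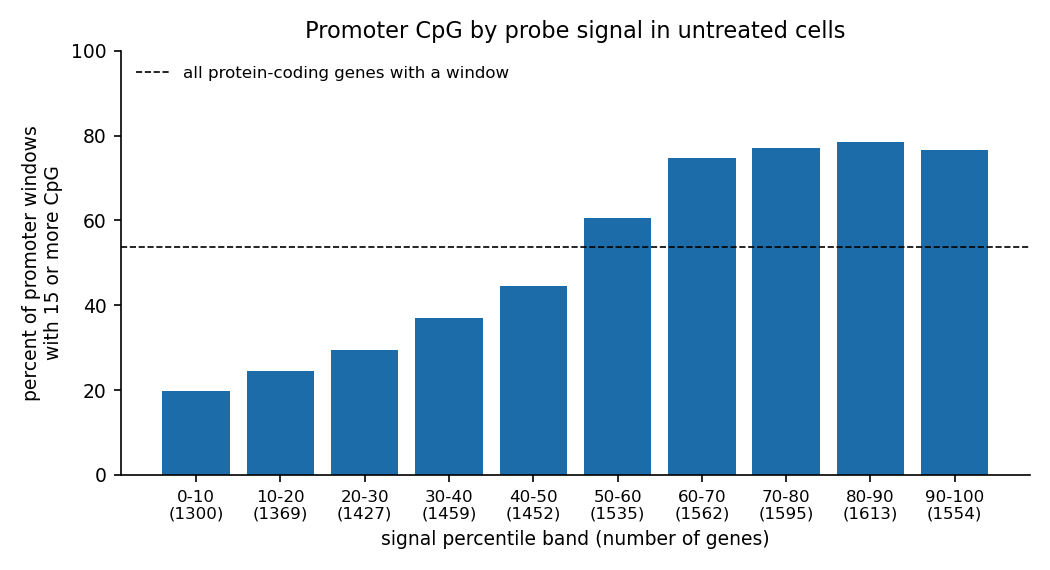
Percent of promoter windows with 15 or more CG (vertical axis, starting at 0) in 10 bands of signal percentile in untreated cells (horizontal axis, number of genes in parentheses). The dashed line is the 53.7% of all 14866 protein-coding genes with a window. The bars climb from 19.8% in the lowest band to 74.6% between percentiles 60 and 70, and the 3 bands above hold 76.6 to 78.4%.

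Gene groups differed in this share, which was 53.7% over all measured protein-coding genes with a window. Quiescence genes had 15 or more CG in 24 of 29 windows, nucleolar genes in 27 of 32 and the JAK-STAT list in 16 of 23. Cytokine genes had them in 2 of 29 and cytotoxic genes in 3 of 22. The olfactory receptors had them in 0 of 763. Some groups went against the relation. The GIMAP genes, bright in these cells, had 0 of 7, and the class I presentation genes, also bright, had 7 of 16 (43.8%). The nuclear receptors, low as a list, had 24 of 43 (55.8%), which is near the share of all genes. Promoters of 3 genes show the range, with each CG in capitals. Btg1 (chr10:96616751-96617050, +) is a bright gene with 25 CG, Cd3d (chr9:44981536-44981835, +) a bright T cell gene with 1, and Il2 (chr3:37125905-37126204, −) a gene near background with 2.
Btg1: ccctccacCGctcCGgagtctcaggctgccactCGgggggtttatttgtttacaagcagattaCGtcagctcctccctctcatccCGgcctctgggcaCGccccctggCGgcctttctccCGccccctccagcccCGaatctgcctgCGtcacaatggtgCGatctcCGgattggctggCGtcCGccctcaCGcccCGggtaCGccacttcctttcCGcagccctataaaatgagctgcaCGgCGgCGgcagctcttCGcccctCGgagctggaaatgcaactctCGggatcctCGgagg
Cd3d: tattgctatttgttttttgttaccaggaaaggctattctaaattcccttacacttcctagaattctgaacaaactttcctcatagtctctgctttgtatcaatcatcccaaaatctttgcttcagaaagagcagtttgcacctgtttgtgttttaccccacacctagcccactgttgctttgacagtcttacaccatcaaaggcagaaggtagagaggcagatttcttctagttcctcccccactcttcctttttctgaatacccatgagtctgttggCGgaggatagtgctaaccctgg
Il2: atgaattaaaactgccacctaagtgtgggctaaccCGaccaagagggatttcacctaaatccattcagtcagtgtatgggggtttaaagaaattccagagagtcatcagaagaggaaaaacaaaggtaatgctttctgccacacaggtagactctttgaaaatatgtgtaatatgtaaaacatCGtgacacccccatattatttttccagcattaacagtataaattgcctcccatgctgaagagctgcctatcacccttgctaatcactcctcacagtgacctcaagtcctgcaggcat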

How the data were processed

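Total RNA (100 ng per sample) of untreated CD8+ T cells was measured on single-colour Agilent mouse arrays with fluorescent cRNA and spike-in controls, per the labels' protocols. The authors' deposited scanner files give a processed signal, a linear intensity that came from Agilent Feature Extraction 10.7.3.1 per the file headers (9.5.3.1 per the submitters' processing notes) with background subtraction and within-array detrending, and not normalized between arrays. Coordinates are mm9, per the file headers. The deposited value table also holds intensity, and each of its untreated columns equalled the array's processed signal times 1.209 or 1.245, with values under 15 set to 15 and medians of 89.57 and 92.25. That match settled the scale, the centring and the direction of the table. The 6 columns of treated samples were not used.

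Outlier spots (233 and 246 per array) were left out, spots of 1 probe were averaged as log2 values, and each array was scaled to its 75th percentile over non-control spots. A probe was well above background where over 50% of its usable spots carried that flag. Probes were named by accession through the RefSeq gene table of GRCm38.p6 (26690 of 41174 probes, 3169 of them under another symbol than in the file), then by symbol (5189) or synonym (952), and 8343 were unmatched and are not in the gene set. Of 8508 genes with more than 1 probe, the brightest probe was used. Array signals give no counts, so precision is limited by the number of arrays. Computation used Python 3.11.15, numpy 2.4.6, pandas 2.3.3 and matplotlib 3.10.9, with R 4.3.3 and limma 3.58.1 for normexp and quantile normalization. The script was tested on simulated data.

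The members and the gene lists were chosen with earlier results of these data known. Genes were named by rule: the 30 brightest, the 4 brightest of each list or family and up to 6 exceptions to its majority, a fixed set of 90 genes, and the 10 farthest apart between the arrays in each direction. Some genes that these rules select are not reported here. Other genes were named after their values were seen. There is 1 group and no test.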

Additional observations from a re-analysis of the deposited data

Results flagged for a closer look

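Probes whose names matched no RefSeq gene lie outside the gene set, and 3312 of 8271 with a value on both arrays (40%) were well above background on both untreated arrays, against 67.7% of the genes in the set. Above the olfactory receptor level were 1974 of them (23.9%). The brightest was the probe of a T cell receptor beta constant mRNA, with 481180 and 457957, and the other bright ones included the TRBC1 and TRBC2 segments and predicted transcripts.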

How the results depend on the processing

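The number of genes called present was 13404. It was 15032 with 1 array sufficing, 16012 with the positive-and-significant flag and 12169 above the 99th percentile of negative controls. With every probe required it was 11021, and with outlier spots kept 13416. At the olfactory level, a setting chosen after seeing the data, it was 10663. These settings called between 53.9% and 80.9% of all genes. The measured set of 19798 genes is under 1.5 times 13404, so the count could not have risen by that factor. Without a replicate it was 13449 to 14987. Olfactory receptor genes called present were 227, against 505 with the positive-and-significant flag, 415 with 1 array sufficing, 131 above the 99th percentile of negative controls and 409 without replicate 1. List counts that moved by more than 1.5 times were these. At the olfactory level the counts were 17 for cytokines, 6 for dendritic cells, 11 for the myeloid list, 8 for NK cells, 3 for gamma delta T cells, 9 for erythroid and platelet markers, 4 for stroma, 1 for hepatocytes, 2 for neurons, 3 for muscle, 3 for epithelium and 1 for germ cells. With every probe required they were 6 for dendritic cells, 4 for stroma, 3 for neurons, 4 for muscle and 3 for sex-linked genes. With 1 array sufficing they were 6 for hepatocytes and 8 for neurons, with the positive-and-significant flag 9 for neurons, 12 for epithelium and 10 for germ cells, and above the 99th percentile of negative controls 5 for muscle. Without a replicate the count was 3 to 6 for hepatocytes and 5 to 8 for neurons, in both cases higher without replicate 1. Genes 2-fold apart between the arrays numbered 71, against 11 after normexp with quantile normalization and 1418 over all genes without a filter. Averaging all probes of a gene moved 6 of 90 fixed genes by over 10 percentile points, the farthest being Slc2a3, at percentile 43.6 against 76.8 by its brightest probe, and placed the G1 control list at 61 against 72.5. In the deposited value table, floored at 15, Ncr1 stood at 10.2 against 20.2 and the major urinary proteins at 10.2 against 20.3. The cause was not tested for any of these. No paired analysis was possible because only 1 group is described.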

Other observations

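Some bright probes belong to genes of epithelium, hair, muscle, nerve or basement membrane. These genes were chosen after their values were seen, and no cause was tested. Krtap4-6, a keratin-associated protein of hair, had 191775 and 185646, with a probe of 42 G or C bases in 60. Sprr2a1, a cornified envelope protein of skin, had 191054 and 187190 on one probe, while its other probe had 41.7 and 58.0. Acta2, smooth muscle actin, had 37368 and 38419 on its brightest probe, while its other 4 probes ranged between 3.51 and 326. Syn1, a synaptic vesicle protein, had 16888 and 15334 on a probe with 49 G or C bases and 151 and 91.5 on the other. Col4a4, a basement membrane collagen, had 8176 and 8459 on one probe and 7.54 and 4.40 on the other. Probes of one gene that differ this widely place the gene near the top or near the floor depending on which probe is used. Of 6934 genes above background with more than 1 probe, 2383 had another probe that was not.

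The olfactory receptor family, low as a whole, held 1 gene above percentile 75. Olfr571 had 6164 and 6678, read by a single probe of 28 G or C bases. Car1, a carbonic anhydrase of red cells and gut, had 13954 and 13775, also by a single probe. Erdr1, which was not placed on a chromosome in the files, had 140056 and 128135 on its brighter probe and 19414 and 20430 on the other. The scavenger receptor genes Cd163l1 and 5830411N06Rik, neighbours on chromosome 7, were both bright, with 14514 and 15036 for Cd163l1 and 16139 and 16949.5 for 5830411N06Rik, though the second probe of 5830411N06Rik had 156 and 150.

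Among 27 killer lectin-like receptor genes, Klrd1 was the one above percentile 75. It pairs with NKG2 chains, encoded by Klrc1, Klrc2 and Klrc3, to bind the nonclassical class I molecule Qa-1, which H2-T23 encodes. Klrc1 had 1074 and 1077, Klrc3 had 287 and 312 and Klrc2 had 6.22 and 3.5, while H2-T23 had 145185 and 154297. The 6 family members above the olfactory level were Klrd1, Klrc1, Klrg1, Klrc3, Klrk1 and Klrb1f, none of them a Ly49 gene (Klra).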
